A study of Homo sapiens with 47 samples.

Results

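The protein-coding genes of the short arm of chromosome 10 are described here in HEK293T cells and in a line derived from them that carries a mutation of EAF1. The arm was chosen on measured values, since the comparison of EAF1-mutant with wild-type RNA had shown its genes to be lower as a group, and its members were then taken by position alone: every protein-coding gene of the count table whose lower coordinate on chromosome 10 (GRCh38) is under 39000000. This rule gave 153 genes of the 58395 in the table and of 19773 that the GENCODE v44 annotation lists as protein-coding. HEK293T is a transformed human embryonic kidney line. Ribosomal RNA-depleted total RNA was sequenced from wildtype HEK293T cells and from the EAF1-mutant line, with 3 libraries each. In the mutant, both alleles were edited by CRISPR knock-in so that alanines replace 4 amino acids of the site with which EAF1 binds the Mediator subunit MED26, and cells of 1 clonal line were used, so differences between that clone and the parental cells cannot be told apart from effects of the mutation. The labels do not say whether the 3 libraries of a group came from separate cultures. The paper states that each experiment had at least 3 biological replicates. The p values measure only the spread between these libraries. Library totals were 59137210, 52541541 and 55637032 counts for wild type, and for the EAF1 mutant 57198018, 53369621 and 66611451. Values are CPM, the usual counts-per-library-size unit, with library sizes adjusted by the TMM factors of edgeR, and positions after gene IDs are on chromosome 10 (GRCh38).

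EAF1 is a component of the elongation complexes that help RNA polymerase II along its template, and Mediator is a coactivator that helps recruit these complexes to genes. A chromosome arm is not a functional pathway. Its genes are neighbors that share a stretch of DNA and are mostly of unrelated function, and the short arm of chromosome 10 holds genes of chromatin silencing, DNA replication, ribosome assembly, mitochondrial energy metabolism, the cytoskeleton and membrane traffic.

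The cell line label was checked on marker genes. Of 8 renal and neural genes associated with HEK293T cells, 6 had at least 1 CPM in wild-type cells, led by the cadherin gene CDH2 with 109 ± 0.652 CPM (SD, n = 3) in the wild-type group, against 99.5 ± 2.59 (SD, n = 3) in the mutant. PAX2 had 0.678 ± 0.177 CPM (SD, n = 3) in the wild-type group, against 0.871 ± 0.194 (SD, n = 3) in the mutant, and PAX8 had 0.0762 ± 0.0417 CPM (SD, n = 3) in the wild-type group, against 0.108 ± 0.0230 (SD, n = 3) in the mutant. The 8 genes summed to 277, 288 and 287 CPM in the wild-type libraries and 219, 212 and 215 CPM in the EAF1-mutant ones. Among 7 markers of other cell types, COL1A1 alone had at least 1 CPM, with 2.85 ± 0.584 CPM (SD, n = 3) in the wild-type group, against 4.15 ± 0.152 (SD, n = 3) in the mutant, and the keratin gene KRT5 had no count in wild-type cells. The other 5 (PTPRC, CD3E, ALB, PECAM1 and CDH5) had at most 0.144 CPM as the mean of a group. The 7 genes summed to 2.44, 2.99 and 3.58 CPM in the wild-type and 4.21, 4.65 and 4.69 CPM in the EAF1-mutant libraries, and CD3E had no count in EAF1-mutant cells. The part of these markers in the values of the arm was not tested. The level of EAF1 itself, on chromosome 3, does not check the labels because an edited codon leaves the RNA countable. EAF1 had 57.4, 58.3 and 56.4 CPM in the wild-type libraries and 19.6, 17.9 and 18.7 CPM in the EAF1-mutant libraries.

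Most expressed genes of the arm had less RNA in EAF1-mutant than in wild-type cells, and VIM, TASOR2, GDI2, GTPBP4 and ATP5F1C, among the genes with the most RNA, were all lower. NEBL, OPTN and FZD8 were among the exceptions that were higher. Of the 153 members, 127 passed edgeR's filter on low counts and were tested with all 28025 genes that passed it. The others comprised 6 members with no count in any library and 20 with counts, whose mean over the 6 libraries was at most 0.180 CPM. Over the 127 tested members, the median log2 fold change was -0.44 (quartiles -0.62 and 0.04), so that the median gene had 73.8% of its wild-type level, and 93 of 127 lay below 0. Against the wild-type mean, the 3 EAF1-mutant libraries gave median differences of -0.42, -0.44 and -0.45 over these members. Each wild-type library, set against the mean of the remaining pair, gave -0.01, 0.02 and -0.01. All 3 EAF1-mutant libraries thus lay apart from the wild-type ones by far more than the libraries of either group differed among themselves. Since the arm was chosen on this contrast, these values are a description and no test was made of them. In RNA from bulk cells, fewer cells of a type and less RNA per cell cannot be told apart.

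Calls were made with the quasi-likelihood test of edgeR where the adjusted p was below 0.01 (Benjamini-Hochberg, over all tested genes) and the size of the log2 fold change was above 0.5. By these criteria 50 members were lower and 9 higher. Over all tested genes, 9.36% were lower and 11.0% higher by the same criteria, and over the 15439 tested protein-coding genes 11.2% and 12.4%. In 86 tested members all 3 EAF1-mutant libraries lay below the 3 wild-type ones, and in 24 all lay above. The same held for 35.3% and 34.8% of tested protein-coding genes. At an adjusted p below 0.05 with no fold limit, edgeR gave 80 lower and 23 higher members, beside 25.6% and 25.9% of all tested genes. Nothing is read from these counts, because the same contrast picked the arm, and the adjusted p values of single genes, which come from that contrast too, describe those genes only. The scaling sets the split: with library totals in place of TMM, the median of all tested genes was 0.13 instead of 0.01, the median of the members was -0.32, and 33 members were lower and 12 higher, beside 1844 lower and 4166 higher genes over the whole table.

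A sum over all 153 members needs no filter. The members together took 5539.9, 5666 and 5576 CPM of the wild-type libraries and 4292, 4137 and 4202 CPM of the EAF1-mutant ones, 5594 ± 64.9 against 4210.4 ± 78.0 CPM (SD, n = 3), or 75.3% of the wild-type sum. With library totals the sum came to 81.5%. The 569 protein-coding genes of the long arm of chromosome 10 summed to 20238, 20729.8 and 20464 CPM and 20064, 19583 and 19827 CPM, which is 96.8%, or 105% with library totals. Their 463 tested genes had a median log2 fold change of 0.04, with 193 below 0. With library totals this median was 0.16. The median over the 14849 tested protein-coding genes of other chromosomes was 0.00 with TMM. These values stand side by side without a test, for the reason given above.

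Along the arm, the shift was not even. Stretches of 5 Mb were numbered from the short-arm end. In the stretch nearest the end, 13 members were tested and the median log2 fold change was -0.43. The next stretches had medians of -0.56 (17 members), -0.48 (24 members) and -0.62 (21 members), and the fifth, which reaches to 25 Mb, had -0.45 (16 members). From there the medians approached 0 and then passed it. They were -0.13 in the stretch up to 30 Mb (15 members), -0.05 in the stretch up to 35 Mb (12 members) and 0.17 in the last (9 members), where library totals gave -0.01, 0.07 and 0.28 instead. In the last stretch, 1 member lay below 0, against 15 of 17 in the second. The 3 EAF1-mutant libraries drew the same course: their medians were -0.57, -0.63 and -0.56 in the fourth stretch and 0.15, 0.20 and 0.22 in the last. The wild-type libraries stayed between -0.05 and 0.03 in all 8 stretches.

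**Figure D1:**
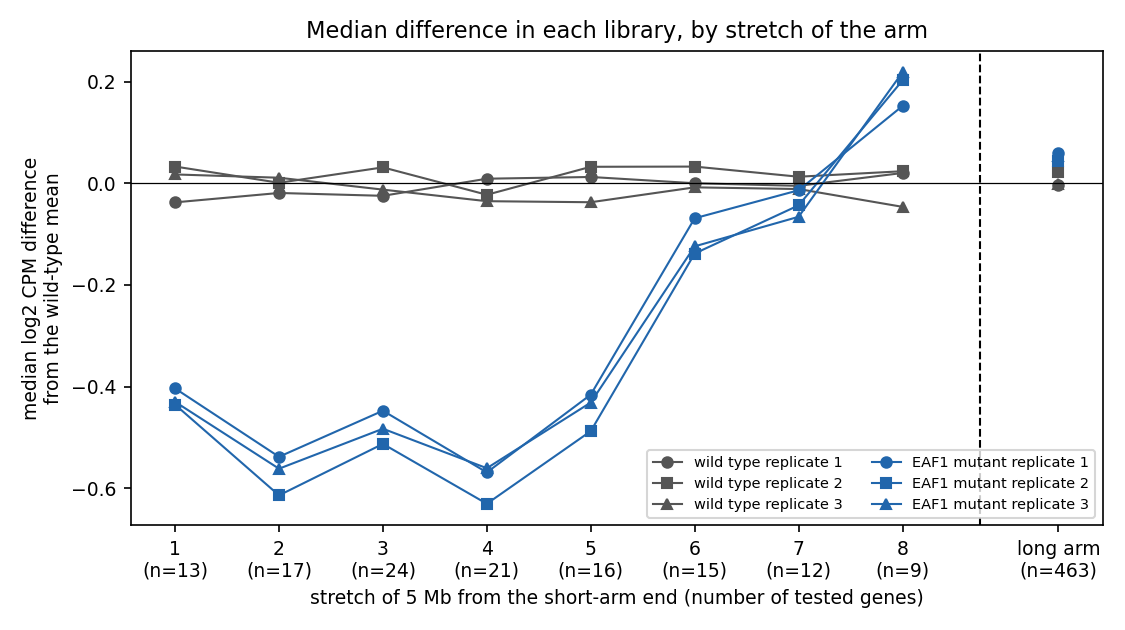
Median difference in log2 CPM over the tested members of each 5 Mb stretch, numbered from the short-arm end (horizontal axis, with the number of tested genes), for each of the 6 libraries, and for the long arm at the right; each EAF1-mutant library is set against the wild-type mean and each wild-type library against the mean of the other two. The 3 EAF1-mutant libraries lie below all wild-type libraries in stretches 1 to 7, though with library totals the median of stretch 7 turns to 0.07, and above them in stretch 8.

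In gene order, the values changed between ABI1 (start at 26746593) and its tested neighbor ANKRD26 (start at 26973793). This division was chosen after the values were seen and was not tested. Among the 95 tested members up to ABI1, the median log2 fold change was -0.50 and 79 lay below 0, with 47 lower and 8 higher past the threshold. Among the 32 from ANKRD26 on, it was 0.06, with 14 below 0, 3 lower and 1 higher. This median was 0.01 without wild-type replicate 1 and 0.18 with library totals. The shares over all tested genes, 9.36% lower and 11.0% higher, stand beside these counts. With library totals, the calls were 31 lower and 9 higher up to ABI1, and 2 lower and 3 higher from ANKRD26 on. Over the whole table, 1844 tested genes were then lower and 4166 higher. Nothing is read from any of these counts. On the outer side of the division lies PDSS1, which makes the side chain of coenzyme Q with its partner subunit. PDSS1 had 31.2, 31.1 and 29.1 CPM in the wild-type libraries and 17.0, 17.5 and 16.9 CPM in the EAF1-mutant libraries (log2 fold change -0.83). ABI1, an adaptor of the WAVE actin-nucleation complex chosen here for its place, had 40.4, 43.1 and 45.1 CPM in the wild-type libraries and 31.1, 29.1 and 31.2 CPM in the EAF1-mutant libraries (log2 fold change -0.49). Beyond the division, ANKRD26, also chosen for its place, had 50.1, 51.9 and 47.5 CPM in the wild-type libraries and 47.5, 46.2 and 42.8 CPM in the EAF1-mutant libraries, a log2 fold change of -0.13, and the next gene, YME1L1, had -0.06, or 0.06 with library totals. The summed CPM of the 116 members up to ABI1 came to 68.1% of wild type, and that of the 37 others to 98.5%, or 107% with library totals.

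**Figure D2:**
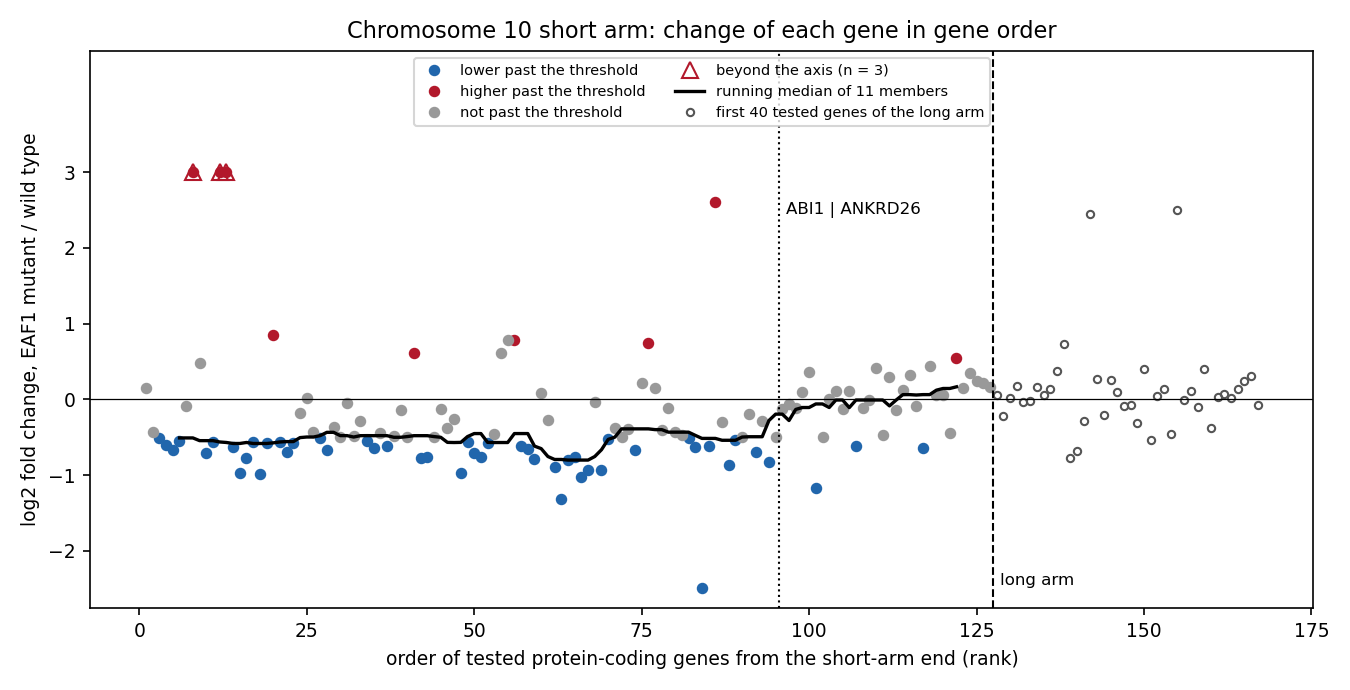
Log2 fold change (EAF1 mutant over wild type) of the 127 tested members in their order from the short-arm end, and of the first 40 tested protein-coding genes of the long arm (open circles), where colors give the calls (adjusted p below 0.01, size of the log2 fold change above 0.5), the line is the running median over 11 neighboring members, triangles mark 3 genes with fitted values above the axis, the dotted line stands between ABI1 and ANKRD26, and the dashed line between the arms. The line runs below 0 up to the dotted line, comes closer to 0 a few genes beyond it, and lies above 0 from EPC1 to its end.

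Among genes with more RNA, the spread from gene to gene was similar in both parts of the arm. The 62 up to ABI1 whose mean reached 10 CPM had quartiles of -0.67 and -0.43, 58 of them lay below 0, and in 57 all EAF1-mutant libraries lay below the wild-type ones. The 25 such genes from ANKRD26 on had quartiles of -0.13 and 0.14. The standard deviation of the log2 fold change over genes was 0.32 and 0.30 in these sets, and 0.36 over the 297 long-arm genes of at least 10 CPM. The 13 tested members under 1 CPM, all of them up to ABI1, had 6 values below 0 and 7 above. The genes called lower among them, ARMC3 and C1QL3, were chosen after their values were seen, and since genes with so few counts passed the filter through their wild-type libraries, nothing is read from their direction. ADARB2, AKR1C1, AKR1C2 and PTF1A, near 0 counts in wild-type cells, are described by their counts with the exceptions.

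At the outer end of the arm, the first tested member was ZMYND11 (ENSG00000015171, 130088 to 254637), a reader of methylated histones. It had 36.0, 36.6 and 37.3 CPM in the wild-type libraries and 41.8, 40.1 and 40.6 CPM in the EAF1-mutant libraries (log2 fold change 0.16, or 0.27 with library totals). TUBB8, a tubulin gene named for its place, lies nearer the end and was not tested. At the inner end, the last member under 39 Mb was PLD5P1 (ENSG00000283930, 38094368 to 38360098), which overlaps the zinc finger gene ZNF37A and whose counts are therefore uncertain. PLD5P1 had 8.53, 7.39 and 7.19 CPM in the wild-type libraries and 8.15, 8.61 and 9.17 CPM in the EAF1-mutant libraries (log2 fold change 0.17), and the groups overlapped. Just outside the limit, the first tested protein-coding gene was ZNF33B (ENSG00000196693, 42574185 to 42638570), also a zinc finger gene. ZNF33B had 50.7, 51.3 and 50.3 CPM in the wild-type libraries and 54.7, 52.7 and 51.9 CPM in the EAF1-mutant libraries (log2 fold change 0.06). Neither gene beside the limit passed the threshold, and the value of PLD5P1 ran from 0.10 without wild-type replicate 3 to 0.28 with library totals.

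The members were grouped by function in 7 lists that together hold 109 of them. Calls in each list stand beside the shares over all tested genes, 9.36% lower and 11.0% higher, and nothing is read from their number. RNA processing, modification and translation was the list of 13 genes, all tested, with a median log2 fold change of -0.51. It had 7 genes lower and 1 higher past the threshold, and 12 of its 13 genes lie up to ABI1. GTPBP4 (ENSG00000107937, 988434 to 1019932), a nucleolar GTPase needed to assemble the large ribosomal subunit, had 171, 177 and 170.5 CPM in the wild-type libraries and 117, 111 and 113 CPM in the EAF1-mutant libraries. This was a fall to 65.8% of the wild-type level (log2 fold change -0.60, 0.04 standard error, edgeR adjusted p = 2.6e-12), which lost its call with library totals at a log2 fold change of -0.49. TRDMT1 (ENSG00000107614, 17137336 to 17202054), a methyltransferase of cytosines in transfer RNA, fell further, from 15.7, 17.6 and 16.2 CPM in the wild-type libraries to 8.39, 7.75 and 8.09 CPM in the EAF1-mutant libraries (log2 fold change -1.03, 0.06 standard error, edgeR adjusted p = 2.77e-12). CELF2, a regulator of alternative splicing, had the highest value of the list among genes of at least 1 CPM. It had 32.3, 38.1 and 36.8 CPM in the wild-type libraries and 34.5, 35.2 and 34.3 CPM in the EAF1-mutant libraries, and the groups overlapped. The log2 fold change was -0.04, or -0.12 without wild-type replicate 1 and 0.07 with library totals.

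Genes of metabolism and mitochondria had the lowest median of the lists, -0.62 over 17 tested of 21, with 11 lower and 2 higher past the threshold. ATP5F1C (ENSG00000165629, 7788147 to 7807815), the gamma subunit of the mitochondrial ATP synthase, had 149.5, 148 and 150.2 CPM in the wild-type libraries and 95.6, 91.2 and 94.4 CPM in the EAF1-mutant libraries. Its fall to 62.7% of wild type (log2 fold change -0.67, 0.04 standard error, edgeR adjusted p = 2.63e-13) held in every EAF1-mutant library. HACD1, a dehydratase of fatty acid elongation, had 9.58, 8.99 and 9.07 CPM in the wild-type libraries and 4.26, 4.74 and 5.48 CPM in the EAF1-mutant libraries (log2 fold change -0.93). PDSS1, described above, was also among the 10 largest falls of members of at least 1 CPM. YME1L1 (ENSG00000136758, 27110111 to 27155266), a protease of the inner mitochondrial membrane, had the most RNA of the list in the mean over all 6 libraries, though not in wild-type cells, and lies beyond ANKRD26. It had 146, 145 and 146 CPM in the wild-type libraries and 142, 136 and 141 CPM in the EAF1-mutant libraries, 95.9% of wild type. The 15 tested members of the list up to ABI1 had a median of -0.65, and 4 lay above 0: PFKP, AKR1C1 and AKR1C2, described with the exceptions, and OLAH, a thioesterase of fatty acid synthesis that has under 1 CPM and was chosen after its values were seen.

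The list of cytoskeleton, adhesion and polarity genes had members on both sides of the division, which was chosen on the values of these genes too. Its 17 tested members had a median of -0.25, or -0.14 with library totals. The median was -0.49 for the 9 up to ABI1 and -0.04 for the 8 others. Past the threshold, 6 members of the list were lower and 1 higher. VIM (ENSG00000026025, 17228241 to 17237593), which encodes the intermediate filament protein vimentin, had the most RNA of all members in wild-type cells, also per length (73.5 CPM per kb of exon, against 64.7 for ATP5F1C, 60.9 for GDI2 and 37.6 for KIF5B). In EAF1-mutant cells GDI2, with 41.2 CPM per kb, and ATP5F1C, with 40.6, lay above VIM, with 38.5. VIM had 374, 376 and 390.5 CPM in the wild-type libraries and 197, 197 and 204 CPM in the EAF1-mutant libraries. It fell to 52.4% of wild type (log2 fold change -0.93, 0.04 standard error, edgeR adjusted p = 5.65e-16), and no EAF1-mutant library came near a wild-type one. In the inner part of the arm, KIF5B (ENSG00000170759, 32009015 to 32056425), the heavy chain of conventional kinesin, had 219.6, 226 and 216 CPM in the wild-type libraries and 207, 196 and 199 CPM in the EAF1-mutant libraries, a log2 fold change of -0.14, or -0.02 with library totals. ITGB1 (ENSG00000150093, 32887273 to 33005792), the beta subunit shared by many integrins, had 148, 147 and 144 CPM in the wild-type libraries and 144, 137 and 134 CPM in the EAF1-mutant libraries, 94.2% of wild type. Its log2 fold change was -0.09 and turned to 0.03 with library totals.

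The start of VIM is shown because VIM and the noncoding gene VIM-AS1, which overlaps it on the opposite strand, moved together. VIM-AS1 is not a member and was chosen after its values were seen. It had 102, 92.9 and 105 CPM in the wild-type libraries and 51.5, 54.0 and 55.6 CPM in the EAF1-mutant libraries (log2 fold change -0.90, beside -0.93 for VIM). A further noncoding gene of that strand, ENSG00000234961, lies within VIM and was also chosen after its values were seen. Its values were 144, 148 and 150 CPM in the wild-type libraries and 75.7, 77.3 and 80.2 CPM in the EAF1-mutant libraries (log2 fold change -0.92). The library kit marks strand, but the available sources do not give the strand setting of the counting. Reads of VIM and of these noncoding genes may not be told apart. The 300 bases around the VIM start (RefSeq, GRCh38.p14, chr10:17227991-17228290, plus strand) follow, with the letters GGGCGG, a GC box, in capitals; both strands were searched.
VIM: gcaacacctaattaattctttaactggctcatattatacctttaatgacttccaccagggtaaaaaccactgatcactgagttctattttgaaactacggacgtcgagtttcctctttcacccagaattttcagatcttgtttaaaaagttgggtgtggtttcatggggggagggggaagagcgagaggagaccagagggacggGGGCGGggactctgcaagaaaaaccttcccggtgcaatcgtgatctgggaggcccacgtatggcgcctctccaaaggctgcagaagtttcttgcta
The window holds 1 such match. Of the 35116 promoter windows of this length in the RefSeq table, 45.0% hold at least 1 on either strand, a set that also covers genes not tested here. In the first listed window, 64.3% of the 115 tested members with an entry do, beside 63.1% of 396 tested long-arm genes. The median G and C content of those windows was 66.3% for the members, 64.7% for the long-arm genes and 58.7% over the whole table.

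In membrane traffic, protein folding and ubiquitin, all 12 genes were tested, the median was -0.44, and 4 were lower and 1 higher. Of the 12 genes, 11 lie up to ABI1. GDI2 (ENSG00000057608, 5765223 to 5842132) keeps Rab GTPases in their inactive state in the cytosol. It had 236, 244 and 236 CPM in the wild-type libraries and 167, 152 and 165 CPM in the EAF1-mutant libraries (log2 fold change -0.56, 0.04 standard error, edgeR adjusted p = 2.2e-11) and lost its call with library totals, at -0.45. ASB13 (ENSG00000196372, 5638867 to 5666595), a substrate adaptor of ubiquitin ligases, fell from 30.4, 28.5 and 30.9 CPM in the wild-type libraries to 15.6, 14.2 and 15.8 CPM in the EAF1-mutant libraries. With 50.8% of its wild-type level left, it had the lowest value of this list.

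Of 8 genes of DNA replication, repair and the cell cycle, 3 were lower past the threshold, and the median was -0.46. It was -0.50 for the 5 genes up to ABI1 and -0.11 for the others. MCM10 (ENSG00000065328, 13161558 to 13211110), which acts with the replicative helicase when replication starts, had 130.2, 134 and 126 CPM in the wild-type libraries and 77.1, 73.9 and 76.5 CPM in the EAF1-mutant libraries. It fell to 58.2% of wild type (log2 fold change -0.78, 0.04 standard error, edgeR adjusted p = 4.78e-14). CUL2, the scaffold of a ubiquitin ligase and the highest of the list, lies in the inner part of the arm. It had 40.2, 44.0 and 41.4 CPM in the wild-type libraries and 46.5, 41.3 and 43.4 CPM in the EAF1-mutant libraries, with overlapping groups.

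Chromatin and transcription regulators were spread over both parts of the arm. All 20 were tested, with a median of -0.06, which turned to 0.05 with library totals. The 10 genes up to ABI1 had a median of -0.45 and the 10 others one of 0.13. Past the threshold, 5 were lower and 1 higher. TASOR2 (ENSG00000108021, 5684731 to 5763779), a relative of the silencing factor TASOR, had 304, 317 and 307 CPM in the wild-type libraries and 184, 180.0 and 179.9 CPM in the EAF1-mutant libraries. It fell to 58.5% of wild type (log2 fold change -0.77, 0.04 standard error, edgeR adjusted p = 1.17e-14). MKX (ENSG00000150051, 27672874 to 27746060), a homeobox factor of tendon, had the largest fall of all members of at least 1 CPM, from 2.00, 2.29 and 2.26 CPM in the wild-type libraries to 0.973, 1.01 and 0.926 CPM in the EAF1-mutant libraries (log2 fold change -1.17, 0.14 standard error, edgeR adjusted p = 3.08e-07), although it lies beyond ANKRD26. ZNF438, a zinc finger gene, had the highest value of the list among genes of at least 1 CPM. It had 1.93, 2.37 and 1.57 CPM in the wild-type libraries and 2.63, 2.84 and 2.36 CPM in the EAF1-mutant libraries, and the groups overlapped (log2 fold change 0.42, adjusted p = 0.0174, edgeR), and without wild-type replicate 2 the log2 fold change was 0.56, past the threshold, as it was with library totals, at 0.53, while without wild-type replicate 3 it was 0.26.

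Of 15 genes for signalling kinases, receptors and ligands, 10 were tested, with 4 lower and 2 higher. Their median was -0.32, or -0.21 with library totals. It was -0.57 for the 7 tested genes up to ABI1 and -0.01 for the others. PIP4K2A, a kinase of phosphoinositides, had 45.5, 48.4 and 48.0 CPM in the wild-type libraries and 31.2, 30.3 and 30.6 CPM in the EAF1-mutant libraries (log2 fold change -0.62). CUBN, an endocytic receptor of kidney and gut epithelium, had 1.33, 1.09 and 1.83 CPM in the wild-type libraries and 0.705, 0.881 and 0.926 CPM in the EAF1-mutant libraries (log2 fold change -0.75, 0.19 standard error, edgeR adjusted p = 0.00221). Its call rests on few counts and was lost without wild-type replicate 3, at a log2 fold change of -0.54, without EAF1-mutant replicate 1, at -0.65, and with DESeq2, at -0.77. The 2 higher genes, IL15RA and FZD8, are described with the exceptions. The 44 members in no list, of which 30 were tested, had a median of -0.43, with 10 lower and 1 higher. Among them ANKRD16, an ankyrin-repeat protein, had 9.61, 7.77 and 8.79 CPM in the wild-type libraries and 4.30, 4.51 and 4.46 CPM in the EAF1-mutant libraries (log2 fold change -0.98). FAM107B and PTER had log2 fold changes of -0.97 and -0.89 and were at 50.9% and 54.0% of wild type. KIAA1217 had 2.24, 2.63 and 2.03 CPM in the wild-type libraries and 1.39, 1.13 and 1.26 CPM in the EAF1-mutant libraries.

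**Figure D3:**
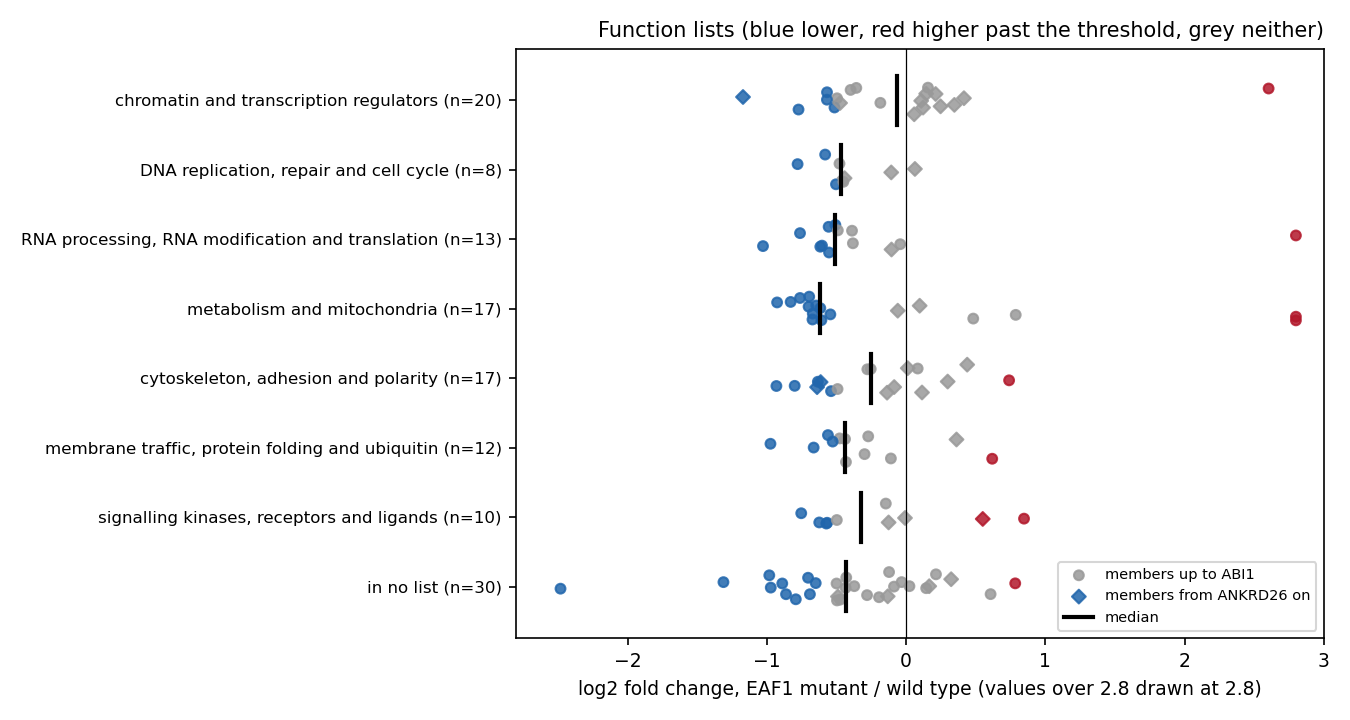
Log2 fold change of each tested member (horizontal axis, EAF1 mutant over wild type) in 7 function lists and among members in no list, with the number tested. Circles stand for members up to ABI1, diamonds for members from ANKRD26 on, black bars for the list medians, 3 fitted values over 2.8 are drawn at 2.8, and in each list the blue symbols, lower past the threshold, are mostly circles.

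Some members went the other way. Of the 82 members up to ABI1 with at least 1 CPM, 9 had a log2 fold change above 0. NEBL (ENSG00000078114, 20779973 to 21293011) encodes the actin-binding protein nebulette and had 23.1, 22.8 and 22.2 CPM in the wild-type libraries and 39.3, 35.5 and 38.8 CPM in the EAF1-mutant libraries. It rose to 167% of wild type (log2 fold change 0.74, 0.05 standard error, edgeR adjusted p = 6.78e-12) in a stretch where most genes were lower. OPTN (ENSG00000123240, 13099449 to 13138308), an autophagy receptor that binds ubiquitin, had 5.07, 4.65 and 4.78 CPM in the wild-type libraries and 7.42, 6.92 and 7.90 CPM in the EAF1-mutant libraries, and rose (log2 fold change 0.62, 0.08 standard error, edgeR adjusted p = 1.09e-06) beside MCM10, the next gene of the arm, which fell. ACBD7, an acyl-CoA-binding protein, had 2.58, 2.75 and 2.37 CPM in the wild-type libraries and 4.56, 4.33 and 4.36 CPM in the EAF1-mutant libraries (log2 fold change 0.78). IL15RA, the private receptor subunit of interleukin-15, had 0.671, 0.751 and 0.915 CPM in the wild-type libraries and 1.51, 1.19 and 1.49 CPM in the EAF1-mutant libraries (log2 fold change 0.85). In these 4 genes the groups did not overlap.

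PFKP (ENSG00000067057, 3066333 to 3137718), the platelet form of the glycolytic enzyme phosphofructokinase, stayed just short of the threshold. It had 61.0, 59.1 and 59.8 CPM in the wild-type libraries and 84.8, 81.9 and 84.6 CPM in the EAF1-mutant libraries, 139.7% of wild type (log2 fold change 0.48, 0.04 standard error, edgeR adjusted p = 2.1e-10), and passed the threshold with library totals, at 0.60, and with a filter at a mean of 1 CPM, at 0.50. Its neighbor PITRM1, a mitochondrial peptidase chosen for its place, ends 9 bases away on the opposite strand. PITRM1 had 112, 105 and 111 CPM in the wild-type libraries and 67.7, 66.4 and 67.9 CPM in the EAF1-mutant libraries (log2 fold change -0.70). Adjacent genes of the arm could thus differ in opposite directions, each by more than its spread between libraries.

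Past ANKRD26, FZD8 (ENSG00000177283, 35638247 to 35642296), a Frizzled receptor of Wnt ligands, was the gene called higher. It had 17.6, 17.2 and 17.1 CPM in the wild-type libraries and 26.2, 26.3 and 23.6 CPM in the EAF1-mutant libraries (log2 fold change 0.55, 0.05 standard error, edgeR adjusted p = 5.4e-09). PARD3, a scaffold of cell polarity, had 41.0, 41.0 and 40.8 CPM in the wild-type libraries and 57.6, 54.0 and 54.8 CPM in the EAF1-mutant libraries (log2 fold change 0.44) and passed the threshold with library totals, at 0.55. RAB18, a Rab GTPase of lipid droplets and the endoplasmic reticulum, and the zinc finger gene ZNF25 had log2 fold changes of 0.36 and 0.35. In the opposite direction, 3 genes of the inner arm fell past the threshold: MKX, and NRP1 and JCAD, which were chosen after their values were seen. With library totals, 2 genes of the inner arm were lower past the threshold, as given above. NRP1, a coreceptor of semaphorins and vascular endothelial growth factor, had 38.1, 37.0 and 37.1 CPM in the wild-type libraries and 24.2, 24.9 and 23.0 CPM in the EAF1-mutant libraries (log2 fold change -0.64). JCAD, a protein of endothelial cell junctions, had 32.3, 32.6 and 33.1 CPM in the wild-type libraries and 21.2, 22.1 and 20.7 CPM in the EAF1-mutant libraries (log2 fold change -0.61). ODAD2, ZEB1 and CCNY, also chosen after their values were seen, came next, with log2 fold changes of -0.49, -0.47 and -0.44 and all EAF1-mutant libraries below the wild-type ones. These values were in the range of the genes up to ABI1, while ITGB1, the tested neighbor of NRP1, had 94.2% of its wild-type level.

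**Figure D4:**
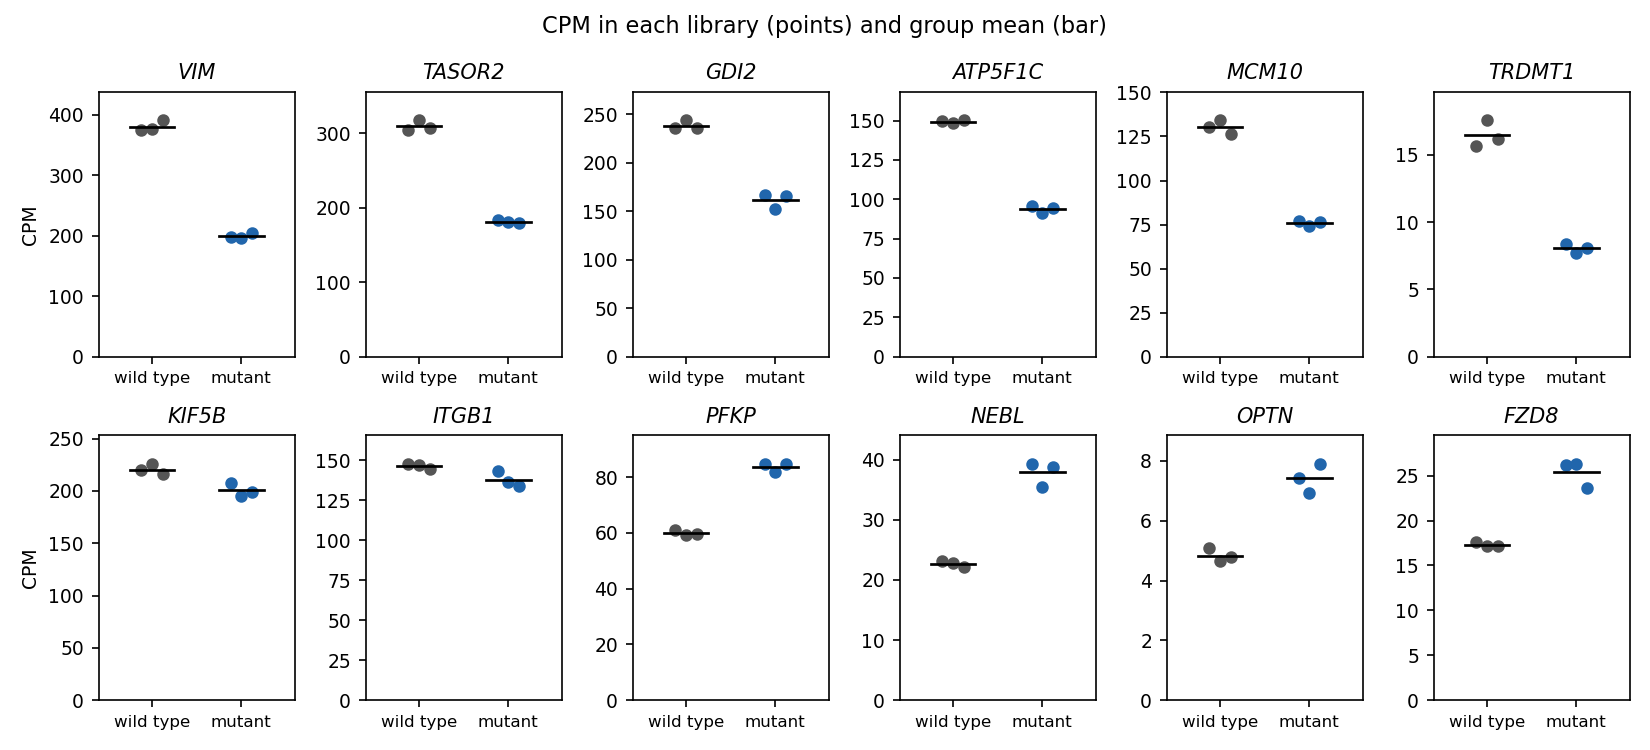
CPM of 12 members in each of the 3 wild-type and 3 EAF1-mutant libraries (points), with the group mean (bar) and axes from 0. VIM, TASOR2, GDI2, ATP5F1C, MCM10 and TRDMT1 are lower in all 3 EAF1-mutant libraries, KIF5B and ITGB1 lie close to wild type, and PFKP, NEBL, OPTN and FZD8 are higher.

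The 4 other genes called higher had almost no RNA in wild-type cells. ADARB2, a brain member of the RNA-editing enzyme family, had 0 counts in each wild-type library and 22, 17 and 17 counts in the EAF1-mutant ones. Against a floor of 3 counts per library, this is at least 5.47-fold higher. The aldo-keto reductase genes AKR1C1 and AKR1C2, whose enzymes reduce steroid hormones, had 1, 2 and 1 and 0, 1 and 1 counts in the wild-type libraries. In the EAF1-mutant libraries they had 24, 19 and 18 and 22, 21 and 25. Summed over each group, the ratio of AKR1C1 was 13.3 (95% exact interval 4.94 to 50.4) and that of AKR1C2 29.6 (95% exact interval 7.90 to 249.7). PTF1A, a transcription factor of the developing pancreas and cerebellum, had 2, 1 and 4 against 17, 12 and 22 counts, a ratio of 6.35 (95% exact interval 2.87 to 16.6). Its fitted log2 fold change of 2.6 became 2.28 without wild-type replicate 2 and 3.19 without wild-type replicate 3. Intervals and floor cover counting error only. A gene so near 0 in wild-type cells passes the filter only through the mutant group, so it could be called in this direction only. With ADARB2 at its bound, the median of the tested members stayed at -0.44.

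AKR1C1 and AKR1C2 are shown by their start regions because they moved together and are near copies, so that their reads may be shared between them. The windows (RefSeq, GRCh38.p14) are chr10:4963165-4963464 on the plus strand and chr10:5003808-5004107 on the minus strand, and capitals mark the longest run of bases they share, 245 of 300.
AKR1C1: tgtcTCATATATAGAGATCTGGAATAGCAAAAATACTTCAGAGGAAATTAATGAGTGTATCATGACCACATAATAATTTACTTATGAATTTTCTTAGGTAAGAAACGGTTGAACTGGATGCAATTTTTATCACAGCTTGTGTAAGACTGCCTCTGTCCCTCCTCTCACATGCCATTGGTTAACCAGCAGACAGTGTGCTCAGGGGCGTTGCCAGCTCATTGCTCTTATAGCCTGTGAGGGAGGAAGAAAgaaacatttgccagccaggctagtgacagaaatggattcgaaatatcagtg
AKR1C2: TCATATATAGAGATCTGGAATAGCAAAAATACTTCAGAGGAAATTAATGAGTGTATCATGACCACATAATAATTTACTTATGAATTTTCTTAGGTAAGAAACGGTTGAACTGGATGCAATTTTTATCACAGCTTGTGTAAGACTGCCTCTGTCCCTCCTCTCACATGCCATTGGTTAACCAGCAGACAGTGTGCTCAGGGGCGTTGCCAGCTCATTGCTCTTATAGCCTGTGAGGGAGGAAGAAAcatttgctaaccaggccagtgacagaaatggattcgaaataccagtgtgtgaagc
Neither window holds the GC box searched above. The counts of each gene of this pair are uncertain where the counting could split reads between copies.

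Other members overlap one another and their counts are uncertain for the same reason. COMMD3, BMI1 and the read-through gene COMMD3-BMI1, named here because they share exons, had log2 fold changes of -0.43, -0.51 and -0.47. MSANTD7 and HSPA14, whose starts lie 4 bases apart, had -0.70 and -0.76. The 29 tested members that overlap no annotated gene had a median of -0.43, beside -0.44 for the 98 that do. The medians of both sets were thus alike.

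The rule did not use the level or the length of a gene. Of the 153 members, 113 (73.9%) had at least 1 CPM in wild-type cells, beside 387 of 569 (68.0%) on the long arm. Across the 82 members up to ABI1 with at least 1 CPM, the log2 fold change had a Spearman correlation of -0.26 with the wild-type level and of 0.22 with exon length. These are descriptions across genes of the same 6 libraries, which are not independent replicates. The wild-type level is also the denominator of the fold change, which by itself moves the former correlation downward.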

How the data were processed

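Ribosomal RNA-depleted RNA-seq counts of 3 wild-type and 3 EAF1-mutant HEK293T libraries were used as deposited by the authors. The submitters' notes name bcl2fastq 2.18, Trimmomatic 0.38, HISAT2 2.3.4.1, R 4.0.2 and DESeq2 1.28.1, while the paper's methods name Trim Galore for trimming and Rsubread for counting. Strand and multimapping settings of the counting were not given in those sources. The library kit marks strand, and counts of overlapping or antisense genes are uncertain. PRO-seq, ChIP-seq, 4C-seq and in situ biotinylation-seq were not used. Samples were grouped by their labels, and library totals are given in the report.

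Gene IDs were matched to GENCODE v44 (GRCh38), which holds 57754 of the 58395, and the 641 others took 2.81% of counts. All genes were fitted together with edgeR 4.0.16 (R 4.3.3, limma 3.58.1), using TMM scaling, filterByExpr, which left 28025 genes, and the quasi-likelihood test with Benjamini-Hochberg adjustment. The biological coefficient of variation was 4.11%. Standard errors were not output of the fit. Each was derived as the size of the log2 fold change divided by the square root of the test's F value. Calls required an adjusted p below 0.01 and a log2 fold change of more than 0.5 in either direction. Differences of single libraries are in log2 CPM with a prior count of 2. Summaries used Python 3.11.15, numpy 2.4.6, pandas 2.3.3 and scipy 1.17.1. The edgeR fit was tested on simulated counts with known changes, and this did not cover the later summaries. Alternatives were library totals, DESeq2 1.42.0 with its size factors, other filters, thresholds, stretch lengths and member rules, a replicate block, and leaving out each library. Sequences are from RefSeq (GRCh38.p14).

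Members and function lists were chosen with earlier results of these data known. Named genes were all members called higher, up to 10 members of at least 1 CPM with the highest log2 fold changes above 0, the 10 with the largest falls in which all EAF1-mutant libraries lay below the wild-type ones, the 10 with the most RNA, the extremes and most abundant gene of each function list, and the genes nearest the ends of the arm and beyond 39 Mb. 1 gene that this rule names is not reported here. Others were chosen after their values were seen or for their place.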

Additional observations from a re-analysis of the deposited data

How the results depend on the processing

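The median log2 fold change of the members stayed below 0 under each alternative tried. It was -0.32 with library totals, -0.40 with no filter other than at least 1 count, -0.46 with a mean of at least 1 CPM, -0.28 over all annotated genes of the arm, and -0.48 to -0.43 when each library was left out in turn. The count of lower members was 33 with library totals, 45 with a mean of at least 1 CPM, 80 at an adjusted p under 0.05 (edgeR) with no fold limit, and 49 to 59 without 1 library. That of higher members was 12, 6, 23 and 9 to 10 in the same order. At the wider threshold, 25.6% of all tested genes were lower and 25.9% higher, and nothing is read from these counts. With stretches of 10 Mb, 3 of 4 had medians below 0, beside 7 of 8 with 5 Mb. The log2 ratio of summed CPM was -0.29 with library totals, -0.38 without VIM, and -0.42 to -0.40 without 1 library. Library totals move all genes upward, and with them the sign turned for the stretch from 30 to 35 Mb (stretch 7, 0.07), YME1L1 (0.06), ITGB1 (0.03), CELF2 (0.07) and the median of the chromatin list (0.05), and the sums from ANKRD26 on and of the long arm passed above wild type (107% and 105%). Of the 39 named members, 31 kept direction and side of the threshold with library totals, 38 with DESeq2 and all 39 with no filter. With the replicate block, the median was -0.44, with 52 lower and 9 higher, and all 39 named members kept theirs. Residuals of same-numbered wild-type and EAF1-mutant libraries had correlations of -0.005, -0.017 and 0.01. Of 6 libraries, 1 correlated best with its own number. Values this small cannot decide whether same-numbered libraries shared a culture or a processing day. Genes with few counts are limited by depth.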

Other observations

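The arm also holds 467 annotated genes of other biotypes, of which 98 were tested. Their median log2 fold change was -0.19. The 59 up to ABI1 had a median of -0.34, with 46 below 0, and the 39 that start beyond the start of ABI1 had 0.04, with 18 below 0. Past the threshold, 12 were lower and 1 higher up to ABI1, and 2 were lower and 5 higher beyond it. Over all tested genes, 9.36% were lower and 11.0% higher, and nothing is read from these counts, since the arm was chosen on this contrast. The 54 long noncoding RNA genes among the 98 had a median of -0.25, with 37 below 0. Many overlap protein-coding genes, so their counts are uncertain.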
